A study of Homo sapiens with 9 samples.

Results

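The comparison of ACSS2-KO-2 with NC in PANC-1 cells, an established human pancreatic ductal carcinoma line, was described across all genes with enough counts. It took in 3 ACSS2-KO-2 libraries and 3 NC libraries of the 9 in the series, numbered 1 to 3 in each group by replicate and chosen by its sample titles. The treatment field disagrees with the titles: it gives ACSS2-KO for ACSS2-KO-2 library 1, ACSS3-KO for library 2 and ACSS4-KO for library 3, so the groups rest on the titles alone. The other 3 libraries, titled ACSS2-KO-3 and given as ACSS5-KO, ACSS6-KO and ACSS7-KO in that field, are of the same line and are quoted only beside results of ACSS2-KO-2. Polyadenylated RNA of whole cultures was sequenced. The labels state neither what the number in the ACSS2-KO-2 title stands for nor what the NC cells carried, so the loss of the gene and other features of the edited cells cannot be told apart. Of 58735 genes in the table, 15811 passed the filter on low counts: 14142 of them were present in NC, with a mean of 1 CPM (a gene's count scaled to a common library size) or more, and 1669 were nearly absent there.

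ACSS2 makes acetyl-CoA from acetate in the cytosol and nucleus, where acetyl-CoA feeds lipid synthesis and the acetylation of histones and other proteins. Most other acetyl-CoA of the cytosol comes from citrate through ACLY, and cancer cells draw on acetate when oxygen or citrate is short. BCAT1, also named in the series title, takes the amino group from leucine, isoleucine and valine in the cytosol, and BCAT2 does the same in mitochondria. PANC-1 is known to lack the block of chromosome 9 that holds the cell-cycle inhibitor gene CDKN2A.

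The ACSS2-KO-2 libraries held 14756572 to 16813763 counts and the NC libraries 14906798 to 16326713, and the groups separated along principal component 1, which held 58.9% of variance. No pair of libraries within a group agreed within sampling noise (chi-square per degree of freedom 1.87 to 4.76), so each library was counted once. Separate cultures are not stated for replicates of a group. The p-values therefore measure no more than the spread within groups over all 9 libraries, which were fitted together, and that spread may be technical. Of markers listed for pancreatic carcinoma lines, KRT8 averaged 2893 CPM in ACSS2-KO-2 and 2938 CPM in NC, and KRT18 averaged 1102 CPM in ACSS2-KO-2 and 1176 CPM in NC. These levels do not by themselves establish the identity of the cells. EPCAM (8.46 CPM in ACSS2-KO-2 and 9.33 CPM in NC) and KRT7 (7.15 CPM in ACSS2-KO-2 and 7.05 CPM in NC) were low in both. Of 6 such markers KRT19 rose by 0.17 on the log2 scale and VIM fell by 0.19, both small changes. The call of KRT19 was lost on leaving out any single library (adjusted p 0.0523 to 0.191). That of VIM was lost on leaving out NC library 1 or 2, or ACSS2-KO-2 library 2 or 3 (adjusted p 0.0588 to 0.239). In DESeq2 with all libraries kept, VIM lost its call as well (adjusted p 0.0639).

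ACSS2 (GRCh38 chromosome 20, 34872146 to 34927962) was checked first as the targeted gene. Its RNA stood at 15.1, 14.7 and 12.4 CPM in ACSS2-KO-2, against 33.3, 30.6 and 28.3 CPM in NC, so every knockout library lay under every NC library and 45.8% of the NC level remained (95% interval 39.8 to 52.6%; edgeR adjusted p 5.26e-09). How much working protein that RNA gives was not measured, and GGT7 overlaps the gene on the opposite strand. BCAT1 was 7.38, 11.2 and 9.70 CPM in ACSS2-KO-2, against 20.5, 20.1 and 17.5 CPM in NC, again without overlap (log2 fold change -1.04, SE 0.13, edgeR adjusted p 1.62e-06). BCAT2 was 47.2, 43.9 and 41.3 CPM in ACSS2-KO-2, against 46.0, 42.7 and 42.4 CPM in NC; the groups overlapped and the gene did not pass (log2 fold change 0.02, adjusted p 0.94).

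In ACSS2-KO-2 most of the transcriptome of PANC-1 stood where it did in NC, and the larger changes that passed the test sat at its lower end. Over all tested genes, 1052 (6.65%) differed at an edgeR adjusted p under 0.05, of which 603 (3.81%) were higher and 449 (2.84%) lower. Knockout and NC libraries did not overlap for 595 of the 603 and 440 of the 449, so separation of the libraries adds little to a call. Among the genes present in NC, 375 (2.65%) were higher and 444 (3.14%) lower. The median log2 fold change of the present genes was -0.01, and 95.55% of them lay within 0.5 of zero. Where a present gene passed, the change was mostly small: the median was 0.35 among the risers and -0.35 among the fallers, and 46 rose and 29 fell at least 2-fold. The split of present genes by direction depended on scaling, with 467 higher and 370 lower under RLE factors and 405 higher and 306 lower in DESeq2. Counts of present genes also leaned on single libraries: 436 passed without ACSS2-KO-2 replicate 2, 471 without NC replicate 2 and 490 without ACSS2-KO-2 replicate 3, and the count over all genes was 666 without ACSS2-KO-2 replicate 2.

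Among genes that passed, the size of the changes fell with abundance. Of 4378 genes at 1 to 10 CPM in NC, 110 rose and 77 fell, with 44 and 21 of them at least 2-fold. Of 7638 genes at 10 to 100 CPM, 199 rose and 258 fell, but only 2 and 8 by that much. Of 2126 genes at 100 CPM or more, 66 rose and 109 fell, and 0 did so 2-fold in either direction. Median counts per library were 46, 554 and 2795 from the lowest to the highest range. At low counts only large folds can pass, and the share of the trend due to this was not tested. The 2 at 10 to 100 CPM that rose 2-fold were FAM84B and AMOT, the second a scaffold of the Hippo pathway named here after its value was seen, at 23.2, 27.8 and 24.9 CPM in ACSS2-KO-2, against 10.3, 11.1 and 12.3 CPM in NC (log2 fold change 1.17, edgeR adjusted p 5.09e-09).

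**Figure D1:**
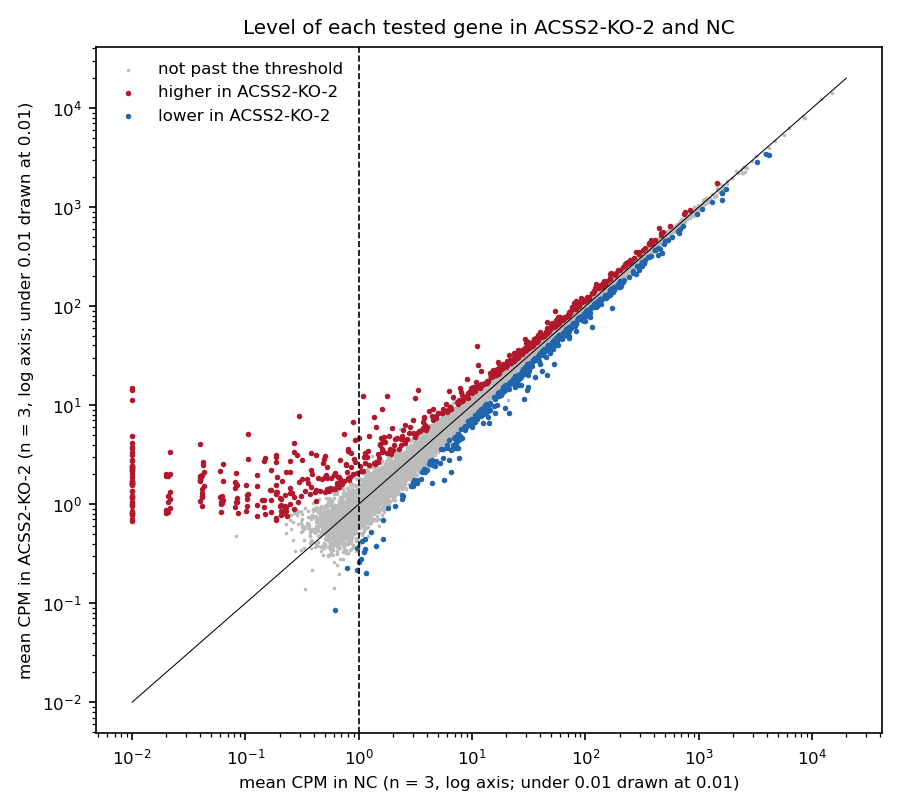
Mean CPM of each tested gene in ACSS2-KO-2 (vertical) against NC (horizontal), both on log axes, with 1 point per gene, red where higher and blue where lower at an edgeR adjusted p under 0.05. The dashed line marks 1 CPM in NC: to its right the points hug the diagonal, and to its left the 228 genes that rose stand far above it, with those at 0 in NC drawn at the left edge.

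The strongest rise of a gene present in NC was that of GLUL, glutamine synthetase, which joins ammonia to glutamate. GLUL was 13.3, 12.0 and 12.1 CPM in ACSS2-KO-2, against 0.936, 1.42 and 0.894 CPM in NC (log2 fold change 3.52, SE 0.20, edgeR adjusted p 1e-12). Reads of its pseudogenes may add to its counts. HEY1, a transcriptional repressor that Notch receptors switch on, was 12.6, 11.8 and 12.5 CPM in ACSS2-KO-2, against 2.12, 1.49 and 1.73 CPM in NC (log2 fold change 2.79, SE 0.16, edgeR adjusted p 1.91e-12). For both genes the 3 knockout libraries were close together and far above NC. Levels in ACSS2-KO-3 averaged 2.53 CPM for GLUL and 2.01 CPM for HEY1.

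Secreted and neuronal proteins made up several of the next. NPTX1, a neuronal pentraxin, was 10.5, 8.42 and 8.61 CPM in ACSS2-KO-2, against 2.06, 1.55 and 1.19 CPM in NC (log2 fold change 2.52, edgeR adjusted p 3.58e-10). GAL, the precursor of the neuropeptide galanin, was 5.32, 6.64 and 6.26 CPM in ACSS2-KO-2, against 1.31, 1.55 and 1.43 CPM in NC (log2 fold change 2.08, 4.41e-08). ADAMTS1, a metalloprotease that cleaves large proteoglycans, was 11.4, 12.2 and 11.9 CPM in ACSS2-KO-2, against 2.81, 2.59 and 4.05 CPM in NC (log2 fold change 1.90, 4.41e-08). In all 3 every knockout library was above every NC library. SCARF2, a scavenger receptor, was 6.18, 6.44 and 5.06 CPM in ACSS2-KO-2, against 2.12, 2.07 and 1.67 CPM in NC (log2 fold change 1.59, 7.66e-06).

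Regulators of transcription and adhesion completed the 10 largest rises. ZNF503, a zinc finger repressor with an antisense gene (ZNF503-AS2) on the other strand, was 13.3, 15.2 and 13.8 CPM in ACSS2-KO-2, against 2.75, 3.62 and 3.58 CPM in NC (log2 fold change 2.08, edgeR adjusted p 6.58e-11). EN2, the homeobox factor engrailed 2, was 5.21, 4.80 and 4.46 CPM in ACSS2-KO-2, against 0.811, 1.42 and 1.49 CPM in NC (log2 fold change 1.95, 1.18e-06). TRIP6, a LIM-domain adaptor of focal adhesions, was 4.52, 4.34 and 5.00 CPM in ACSS2-KO-2, against 0.811, 0.971 and 1.25 CPM in NC (log2 fold change 2.18, 4.47e-07). It averaged just over 1 CPM in NC, the present gene among the 10 closest to that limit. FAM84B was 36.6, 39.4 and 43.0 CPM in ACSS2-KO-2, against 12.2, 10.9 and 10.1 CPM in NC (log2 fold change 1.84, 4.97e-13). No library of one group reached the range of the other in any of these 10 genes, which was a condition for naming them, and all 10 passed in each of 13 alternative fits.

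The 10 largest falls were of weakly expressed genes, and the calls of 5 of them were marginal and lost with at least 1 library left out. HHIPL2, a relative of the hedgehog-binding protein HHIP, was 2.12, 2.37 and 1.81 CPM in ACSS2-KO-2, against 5.49, 7.31 and 6.62 CPM in NC (log2 fold change -1.63, SE 0.18, edgeR adjusted p 4.87e-07). PDE4B, which breaks down cyclic AMP, was 2.80, 2.70 and 3.25 CPM in ACSS2-KO-2, against 7.42, 8.09 and 7.33 CPM in NC (log2 fold change -1.38, 2.3e-06). TNFSF10, the death ligand TRAIL, was 2.23, 1.25 and 1.39 CPM in ACSS2-KO-2, against 4.12, 4.73 and 4.41 CPM in NC (log2 fold change -1.43, 0.000113). These 3 had the highest counts of the 10. CCDC180, a coiled-coil protein, was 0.229, 0.592 and 0.301 CPM in ACSS2-KO-2, against 1.62, 1.17 and 1.43 CPM in NC (log2 fold change -1.92, 0.00222). TMEM169, a membrane protein whose gene overlaps PECR on the opposite strand, was 0.458, 0.526 and 0.361 CPM in ACSS2-KO-2, against 1.75, 1.36 and 1.85 CPM in NC (log2 fold change -1.87, 0.00107).

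The other 5 averaged 1.04 to 1.14 CPM in NC and passed narrowly. They were the lipid droplet enzyme HSD17B13 (log2 fold change -1.84, edgeR adjusted p 0.0117), the dopamine receptor DRD2 (-1.74, 0.0123), the mucin MUC16 (-1.63, 0.0349), the lectin LGALS9 (-1.33, 0.043) and the protease MMP28 (-1.32, 0.0496). MUC16, the carrier of the tumour antigen CA125, was 0.629, 0.197 and 0.241 CPM in ACSS2-KO-2, against 1.25, 1.17 and 1.01 CPM in NC. DRD2 was 0.400, 0.395 and 0.181 CPM in ACSS2-KO-2, against 1.44, 1.23 and 0.656 CPM in NC, with NC replicate 3 much nearer to the knockout than the other NC libraries. The calls were lost for HSD17B13 on leaving out NC library 2, or ACSS2-KO-2 library 2 (adjusted p 0.0524 and 0.0824) and for DRD2 on leaving out NC library 1 or 2, or ACSS2-KO-2 library 3 (adjusted p 0.0589 to 0.0931). The call of MUC16 was lost on leaving out any single library except ACSS2-KO-2 library 1 (adjusted p 0.0676 to 0.189), that of LGALS9 on leaving out any single library except NC library 1 (adjusted p 0.0756 to 0.249), and that of MMP28 on leaving out any single library (adjusted p 0.0567 to 0.242). With all libraries kept, DESeq2 lost the calls of HSD17B13 (adjusted p 0.0502), MUC16 (0.0941), LGALS9 (0.142) and MMP28 (0.156). LGALS9 has near-identical copies and MMP28 lies opposite TAF15, so their counts are uncertain.

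**Figure D2:**
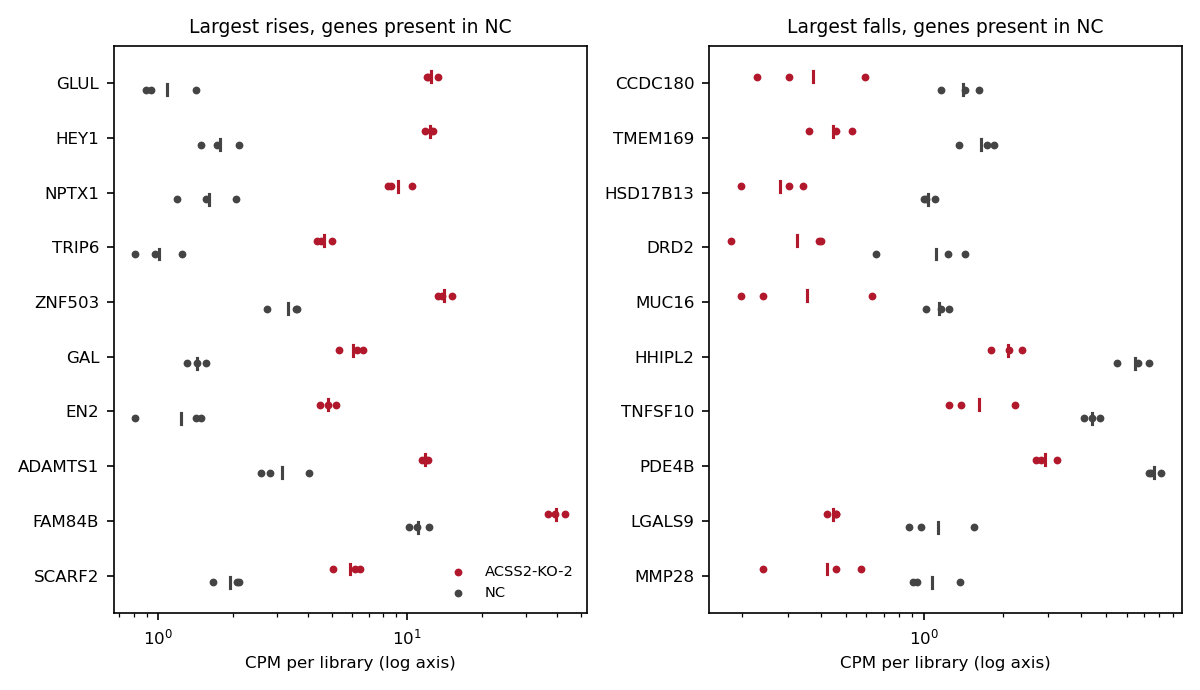
CPM per library, on log axes, of the 10 present genes with the largest rises (left) and the 10 with the largest falls (right); red points are the 3 ACSS2-KO-2 libraries, drawn above the 3 NC libraries in grey, and short bars are group means. GLUL and HEY1 stand near 12 CPM in the knockout, whereas 7 of the 10 fallers average under 2 CPM in both groups.

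Abundant transcripts shifted by small folds that involved many reads. SCD, the desaturase that makes oleate, was 3234, 3451 and 3301 CPM in ACSS2-KO-2, against 4039, 4213 and 4232 CPM in NC (log2 fold change -0.32, SE 0.05, edgeR adjusted p 2.17e-05). MAT2A, which makes the methyl donor S-adenosylmethionine, was 1269, 1083 and 1152 CPM in ACSS2-KO-2, against 1592, 1622 and 1559 CPM in NC (log2 fold change -0.45, 1.02e-06). GAPDH of glycolysis, a gene with many pseudogenes, was 1398, 1368 and 1369 CPM in ACSS2-KO-2, against 1643, 1574 and 1614 CPM in NC (log2 fold change -0.22, 0.00261). The knockout libraries were lower than every NC library in all 3. COL5A2, a chain of fibrillar collagen V, was 577, 624 and 624 CPM in ACSS2-KO-2, against 422, 456 and 465 CPM in NC (log2 fold change 0.44, 5.05e-07), and the cytosolic chaperone HSPA8 was 1628, 1865 and 1801 CPM in ACSS2-KO-2, against 1466, 1388 and 1478 CPM in NC (log2 fold change 0.29, 0.00033). Both were higher in every knockout library than in any NC library. Such separation of the libraries was a condition for naming the genes of this paragraph.

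The other 5 of the most shifted by CPM lost their calls without single libraries. HMGA1, an architectural chromatin protein with pseudogenes, rose (log2 fold change 0.22, edgeR adjusted p 0.00628; 0.066 on leaving out ACSS2-KO-2 library 2). HSPA5, the main chaperone of the endoplasmic reticulum, rose by 0.19 (0.0109; 0.06 and 0.0971 on leaving out NC library 2, or ACSS2-KO-2 library 2). The integrin ITGA3 rose by 0.18 (0.0259; 0.0521 to 0.146 on leaving out NC library 1 or 2, or ACSS2-KO-2 library 2 or 3). The mitochondrial transcripts MT-CO3 (log2 fold change -0.19, 0.0183) and MT-CYB (-0.20, 0.0199) were lower, MT-CO3 losing its call on leaving out any single library except ACSS2-KO-2 library 1 (adjusted p 0.0548 to 0.0959) and MT-CYB on leaving out NC library 2 or 3, or ACSS2-KO-2 library 2 or 3 (adjusted p 0.0524 to 0.115).

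Below 1 CPM in NC, 228 of 1669 genes (13.7%) were higher in ACSS2-KO-2 and 5 (0.3%) lower. This asymmetry is built in: 458 of the 1669 passed the filter on low counts on the NC libraries, 561 did so only on the libraries of ACSS2-KO-2 or ACSS2-KO-3, and 650 on a mix of libraries from several groups, and 226 of the 228 passed it on the ACSS2-KO-2 libraries, against 12 on the NC libraries. The counts therefore describe which genes appeared and carry no weight as evidence of a direction. Of the 228, 51 had 0 counts over the 3 NC libraries, 42 had 1 to 3 and 135 had more, and 219 encoded proteins. Together the 219 came to 430.9, 410.1 and 427.1 CPM in the ACSS2-KO-2 libraries, to 65.6, 68.8 and 72.2 CPM in ACSS2-KO-3, and to 46.1, 52.0 and 52.5 CPM in NC. The selection fixes that these sums are higher in ACSS2-KO-2. On each side of the limit, 42 of 1302 genes at 0.5 to 1 CPM in NC rose and 5 fell, and 41 of 1449 genes at 1 to 2 CPM rose and 11 fell.

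CDKN2A (GRCh38 chromosome 9, 21967753 to 21995301), the gene of p16 and p14ARF, led the risen protein-coding genes of this group by CPM. It was 13.9, 13.8 and 14.9 CPM in ACSS2-KO-2, against 0 CPM in all 3 NC libraries, or 700 counts in ACSS2-KO-2 and 0 in NC, and thus at least 76.0-fold higher against a floor of 3 counts per library. In ACSS2-KO-3 it had 33 counts. MTAP, the methionine salvage enzyme next to it, read after the CDKN2A value was seen, was 3.43, 2.37 and 2.53 CPM in ACSS2-KO-2, against 0.250, 0.453 and 0.238 CPM in NC (log2 fold change 3.13, edgeR adjusted p 5.99e-07), with 138 counts in ACSS2-KO-2, 26 in ACSS2-KO-3 and 15 in NC. CDKN2A lies in the deleted stretch mentioned above. All 3 ACSS2-KO-2 libraries held transcripts of both genes, and all 3 NC libraries held a few counts of MTAP but 0 of CDKN2A. DNA copy number was not measured here.

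IRS4, an adaptor of insulin and growth factor receptors, was 11.1, 11.1 and 11.7 CPM in ACSS2-KO-2, against 0 CPM in all 3 NC libraries, at least 60.4-fold higher. UCHL1, a ubiquitin hydrolase of neurons, was 6.35, 4.14 and 4.10 CPM in ACSS2-KO-2, against 0 CPM in all 3 NC libraries, at least 26.0-fold higher, and FBN2, a fibrillin of elastic fibres, was 3.60, 4.47 and 4.22 CPM in ACSS2-KO-2, against 0 CPM in all 3 NC libraries, at least 21.9-fold higher. All 3 were at 0 in every NC library. DPYSL5, a protein of neuronal growth cones, was 5.26, 4.47 and 5.54 CPM in ACSS2-KO-2, against 0.125, 0.194 and 0 CPM in NC (log2 fold change 5.52, edgeR adjusted p 2.09e-10), and PTGFRN, a partner of tetraspanins in the membrane, was 8.75, 6.84 and 7.47 CPM in ACSS2-KO-2, against 0.250, 0.453 and 0.179 CPM in NC (log2 fold change 4.69, 2.4e-11). HOOK1, which links vesicles to microtubule motors, was 4.18, 4.27 and 3.98 CPM in ACSS2-KO-2, against 0.250, 0.194 and 0.358 CPM in NC (log2 fold change 3.90, 9.58e-09) and had 0 counts in ACSS2-KO-3.

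The remaining 3 of the 10 were enzymes or carriers that NC held at low levels. SLC6A15, a transporter of branched-chain amino acids and proline known from brain, was 7.32, 6.38 and 6.75 CPM in ACSS2-KO-2, against 1.06, 0.841 and 0.775 CPM in NC (log2 fold change 2.93, edgeR adjusted p 5e-10), with 0.366 CPM in ACSS2-KO-3. ALDH1A2, which makes retinoic acid, was 5.21, 4.80 and 5.18 CPM in ACSS2-KO-2, against 0.437, 0.906 and 0.894 CPM in NC (log2 fold change 2.75, 8.04e-08), and the carbonic anhydrase CA2 was 3.95, 5.00 and 4.46 CPM in ACSS2-KO-2, against 0.936, 0.841 and 1.01 CPM in NC (log2 fold change 2.25, 1.5e-07). In each of the 10 genes the lowest knockout library was above the highest NC library, a condition of the naming rule. The 5 that fell were ASPDH, ADAMTS14, SHROOM4, MYO7B and the antisense gene ITGB2-AS1, and the first 3, ASPDH (log2 fold change -1.89, 0.0197), ADAMTS14 (-2.06, 0.0123) and SHROOM4 (-1.78, 0.0324) averaged 0.788 to 0.995 CPM in NC. Their calls were lost for ASPDH on leaving out NC library 1, or ACSS2-KO-2 library 1 or 2 (adjusted p 0.0581 to 0.128), for ADAMTS14 on leaving out NC library 2, or ACSS2-KO-2 library 2 (adjusted p 0.0849 and 0.103) and for SHROOM4 on leaving out any single library (adjusted p 0.0585 to 0.146). In DESeq2 with all libraries kept, ASPDH (adjusted p 0.0633) and SHROOM4 (0.12) lost theirs as well.

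**Figure D3:**
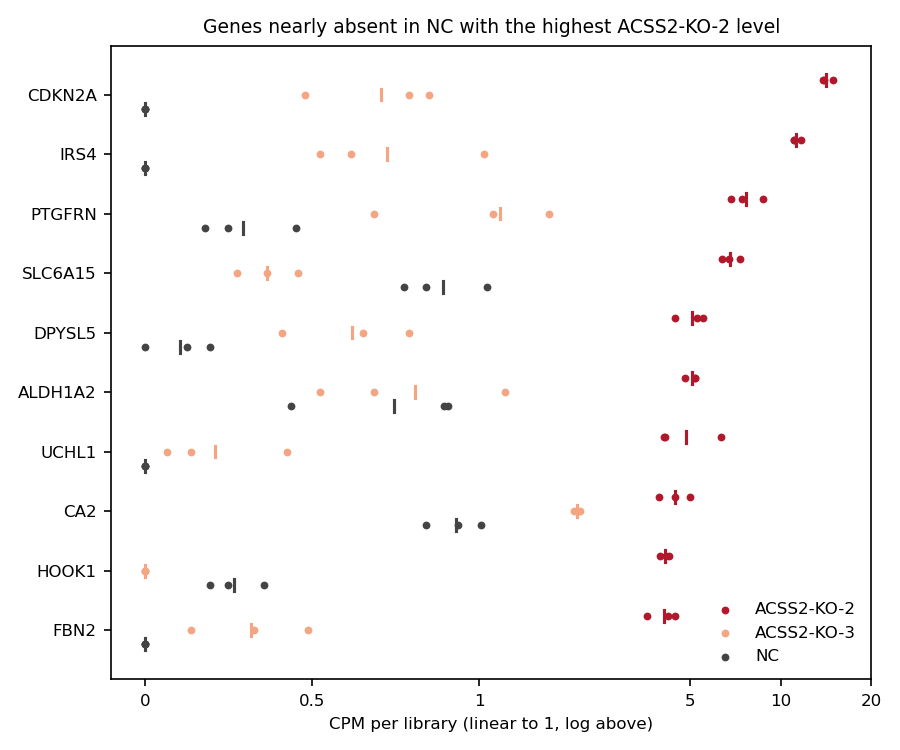
CPM per library of the 10 risen protein-coding genes under 1 CPM in NC with the highest level in ACSS2-KO-2. From top to bottom within a gene, red points are ACSS2-KO-2, orange ACSS2-KO-3 and grey NC, and short bars are group means. The axis is linear to 1 CPM and logarithmic above. The ACSS2-KO-2 libraries of each gene lie between 3.60 and 14.9 CPM, right of all others, and CDKN2A, IRS4, UCHL1 and FBN2 sit at 0 in NC.

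Genes that mark other cells were read beside these risers. Of 25 genes that mark HEK293, an established human embryonic kidney line, 21 were tested and 16 rose (IRS4, UCHL1, CDKN2A, HOXA9, HOXA10, HOXD13, LIN28B, SIX2, EYA4, NEFL, NEFM, GAL, SLIT2, FBN2, HOXD10 and LRP2), while PAX2 fell; all but LIN28B and PAX2 passed in every alternative fit run on them, 13 for genes present in NC and 12 for nearly absent ones. Of the 16 risers 14 were nearly absent in NC and carry the limit given above. So do this count and the median log2 fold change of the 21, which was 7.68 as fitted and 3.43 with the genes at 0 in NC placed at their lower bound, against -0.00 over all tested genes. The 7 members present in NC had a median of 0.06. Of the 25, 15 had 0 counts over the NC libraries and 2 of these, STMN2 and BEX1, had 0 in all 9 libraries. Summed over the list, levels ran from 293 to 318 CPM in ACSS2-KO-2 and from 290 to 294 CPM in ACSS2-KO-3. In NC they ran from 253 to 263 CPM. HOXC10, NR2F1 and PAX2, of which 0 rose, made up most of the sum in every group, so the sums say little about the risers. Each of the 16 risers, which were selected on ACSS2-KO-2, had fewer counts in ACSS2-KO-3. For IRS4, CDKN2A and UCHL1 these were 34, 33 and 10, with 556, 700 and 242 in ACSS2-KO-2. The list was drawn up with earlier results of these data known and shares HOX and neurofilament genes with lists described below. The part of such cells in the rise of nearly absent genes was not tested, and in RNA of a whole culture more cells of a kind and more RNA per cell cannot be told apart.

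Other marker lists held few changes. Of 9 tested neuronal markers, only the neurofilament genes NEFL and NEFM rose and 0 fell. Of 1 acinar, 4 islet and 3 immune markers tested, 0 passed in either direction. The single tested endothelial marker, the VEGF receptor KDR, rose with a log2 fold change of 0.78 (edgeR adjusted p 0.00851; 0.0625 and 0.0536 on leaving out NC library 3, or ACSS2-KO-2 library 2), COL3A1 was the only 1 of 2 tested fibroblast markers that rose, and 0 of 11 hepatocyte markers had enough counts to be tested. At an unadjusted p under 0.05, 1 islet marker was higher and 1 neuronal marker was lower. For every list count of 0, DESeq2 and limma-voom gave 0 as well.

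For each list of genes, the members that passed were counted against the share of all tested genes that did (3.81% higher and 2.84% lower). Lists are descriptive here, since they were chosen with results of these data known, and members that rose from near absence carry the limit given above. CPM values are not corrected for gene length, so levels are compared within a gene only. Paired values in brackets are the log2 fold change and the edgeR adjusted p. Lost calls are mostly given by the library left out, and 33 of the 223 named genes that passed also lost theirs in another setting. Unless noted, members named below passed in every alternative fit run on them, which means 13 for genes present in NC and 12 for nearly absent ones, which the fit of present genes alone left out.

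**Figure D4:**
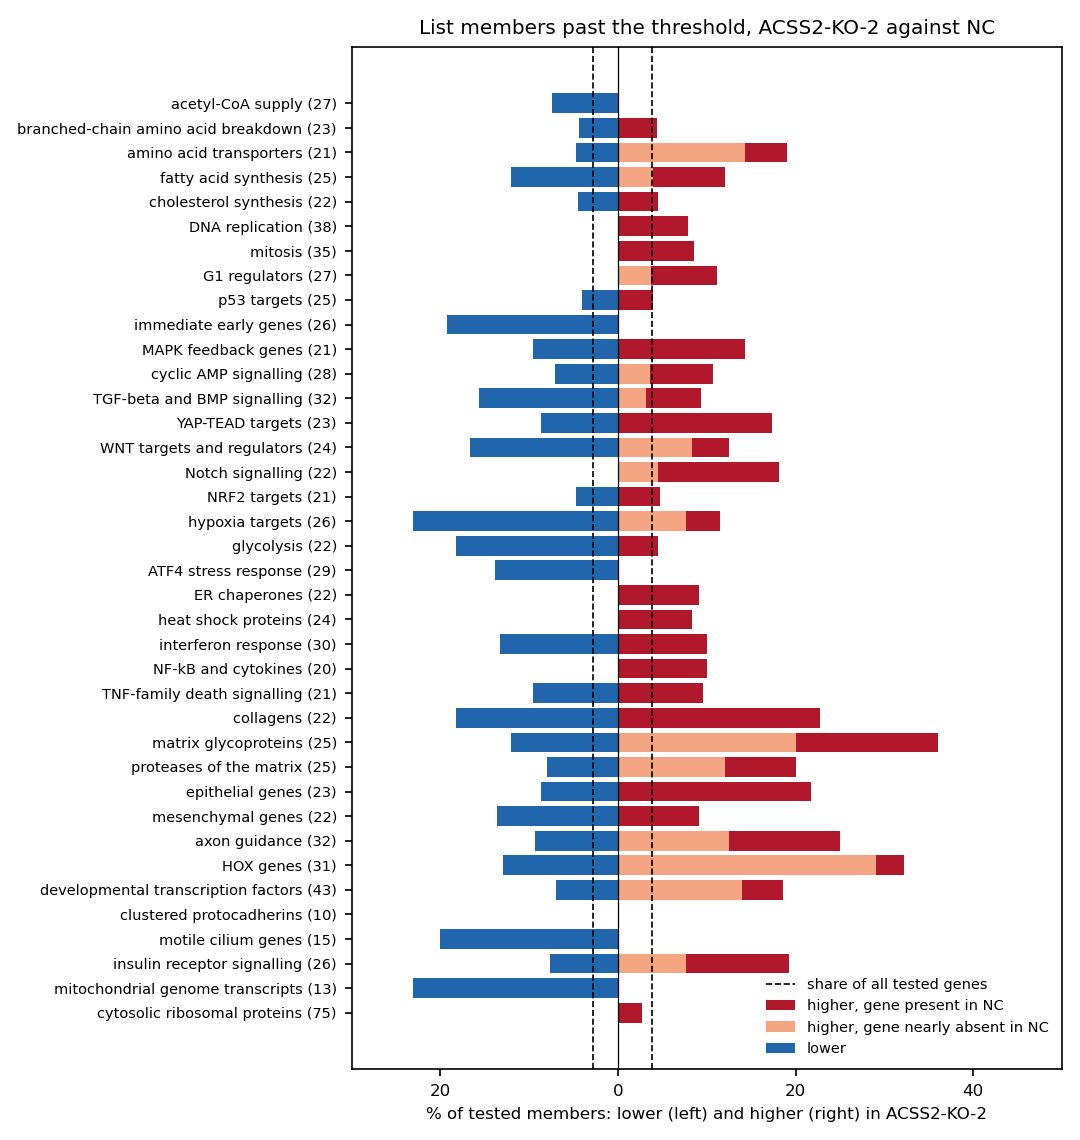
Share of tested members of each gene list drawn that was lower (blue, left of 0) or higher (right of 0) in ACSS2-KO-2, with the number of tested members in brackets. The lists of cell markers and of germline genes are not drawn. The right-hand bars are orange for genes nearly absent in NC and red for genes present there. Dashed lines mark 2.84% and 3.81%, the shares over all tested genes. Orange makes up most of the right-hand bar for HOX genes and amino acid transporters, and none of it for collagens, epithelial genes or YAP-TEAD targets.

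Around acetyl-CoA the call was confined to ACSS2 and IDH2. Of 27 acetyl-CoA supply genes, 0 rose (0 at an unadjusted p under 0.05) and these 2 fell, with a list median of -0.03. IDH2, the mitochondrial isocitrate dehydrogenase that uses NADP, was 93.3, 104 and 93.8 CPM in ACSS2-KO-2, against 122, 124 and 128 CPM in NC, and the groups did not overlap (log2 fold change -0.36, edgeR adjusted p 0.000175). Of 23 branched-chain amino acid breakdown genes, BCAT1 fell and PPM1K, the phosphatase that activates the ketoacid dehydrogenase, rose by 0.65 (adjusted p 0.0198), a call lost on leaving out NC library 1 or 3, or ACSS2-KO-2 library 1 (adjusted p 0.0539 to 0.122). The other 21 of these genes did not pass, and the list median was -0.05.

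Of 21 amino acid transporter genes, 4 rose and 1 fell, and 3 of the 4 were nearly absent in NC. These 3 carry the limit on nearly absent genes given above. Over all tested genes, 228 of the 603 risers were nearly absent in NC. SLC1A3, a glial glutamate carrier, was 2.12, 2.30 and 2.35 CPM in ACSS2-KO-2, against 0 CPM in all 3 NC libraries, at least 12.1-fold higher, and SLC16A10, a carrier of aromatic amino acids, was 1.66, 1.64 and 1.63 CPM in ACSS2-KO-2, against 0 CPM in all 3 NC libraries, at least 8.80-fold higher. SLC7A8, an exchanger of neutral amino acids, had 70 counts in ACSS2-KO-2 and 2 in NC, a ratio of 34.3 (95% counting interval 9.14 to 289); such intervals and floors cover counting error only. The cationic carrier SLC7A2, present in NC, was 3.20, 3.22 and 3.49 CPM in ACSS2-KO-2, against 1.44, 0.906 and 1.07 CPM in NC (log2 fold change 1.53, edgeR adjusted p 0.000226). The taurine carrier SLC6A6 fell by 0.18 on the log2 scale, a call lost on leaving out any single library except NC library 1 (adjusted p 0.0845 to 0.281).

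Lipid synthesis moved both ways. Among 25 genes that make fatty acids, 3 passed as higher and 3 as lower. FADS2, the delta-6 desaturase, was 338, 359 and 339 CPM in ACSS2-KO-2, against 455, 473 and 481 CPM in NC (log2 fold change -0.45, SE 0.05, edgeR adjusted p 3.56e-07), and it fell together with SCD and with SREBF1, the transcription factor over both, at 440.2, 427 and 403 CPM in ACSS2-KO-2, against 475, 503 and 511 CPM in NC (log2 fold change -0.23, 0.00444). All knockout libraries of these 3 were under NC. The elongase ELOVL4, at 0 in NC, was 1.32, 1.12 and 1.14 CPM in ACSS2-KO-2, which is at least 6.39-fold higher. ELOVL2 rose by 0.27, a call lost on leaving out NC library 2, or ACSS2-KO-2 library 3 (adjusted p 0.101 and 0.0721), and DGAT2, which makes triglyceride, rose by 0.32, a call lost on leaving out any single library except ACSS2-KO-2 library 1 (adjusted p 0.0638 to 0.157). Of 22 cholesterol synthesis genes 1 rose and 1 fell; the faller was HSD17B7 (log2 fold change -0.35), with a call lost on leaving out NC library 1 or 2, or ACSS2-KO-2 library 2 (adjusted p 0.0855 to 0.108).

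Few genes of proliferation passed, and those that did rose by small amounts. The exception in size was the inhibitor gene CDKN2A, on the list of G1 regulators, which rose from 0 in NC (above). CDC25A, which removes inhibitory phosphates from cyclin-dependent kinases, was 31.6, 31.2 and 33.2 CPM in ACSS2-KO-2, against 21.0, 22.0 and 20.3 CPM in NC (log2 fold change 0.60, SE 0.08, edgeR adjusted p 3.48e-06), and CDC20, which activates the anaphase-promoting complex, was 232, 235 and 222 CPM in ACSS2-KO-2, against 187, 196 and 201 CPM in NC (log2 fold change 0.24, 0.00316). Neither pair of groups overlapped. Of 38 DNA replication genes 3 rose (MCM4, POLA1 and POLD1), of 35 mitosis genes 3 rose (CDC20, FOXM1 and CCNA2) and of 27 G1 regulators 3 rose (CDC25A, CDKN2A and SKP2), with 0 lower in each (0, 0 and 1 at an unadjusted p under 0.05). The list medians were 0.10, 0.07 and 0.07. Every one of these risers but CDC25A, CDC20 and CDKN2A lost its call without at least 1 library. This was so for POLA1 on leaving out ACSS2-KO-2 library 3 (adjusted p 0.0623), MCM4 on leaving out NC library 2, or ACSS2-KO-2 library 2 (adjusted p 0.0639 and 0.114) and POLD1 on leaving out any single library except NC library 2 (adjusted p 0.0591 to 0.19). It was so too for FOXM1 on leaving out NC library 1 or 2, or ACSS2-KO-2 library 1 or 2 (adjusted p 0.0997 to 0.158), CCNA2 on leaving out any single library except NC library 1 (adjusted p 0.067 to 0.23) and SKP2 on leaving out any single library except ACSS2-KO-2 library 3 (adjusted p 0.056 to 0.0861). Of 25 p53 targets, the nuclease AEN rose at 49.9, 45.0 and 47.5 CPM in ACSS2-KO-2, against 35.9, 36.1 and 36.7 CPM in NC (log2 fold change 0.39, 0.000389) and TP53I3 fell by 0.47, a call lost on leaving out ACSS2-KO-2 library 2 (adjusted p 0.0746).

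Immediate early genes, which growth signals and cyclic AMP switch on within minutes, fell where they moved. Of 26 tested, 5 fell and 0 rose (4 were higher at an unadjusted p under 0.05), although the list median was 0.01. FOS, a subunit of the AP-1 transcription factor, was 26.4, 25.2 and 26.7 CPM in ACSS2-KO-2, against 57.8, 49.8 and 50.0 CPM in NC (log2 fold change -1.01, SE 0.08, edgeR adjusted p 8.98e-10), and EGR1, a zinc finger factor, was 19.96, 15.9 and 21.4 CPM in ACSS2-KO-2, against 36.6, 36.5 and 34.2 CPM in NC (log2 fold change -0.90, SE 0.09, 8.04e-08). Both were lower in every knockout library than in any NC library, and averaged 29.2 and 19.6 CPM in ACSS2-KO-3. The AP-1 subunits FOSB and JUNB were lower too. FOSB was 4.35, 2.76 and 3.67 CPM in ACSS2-KO-2, against 6.92, 6.67 and 6.32 CPM in NC (log2 fold change -0.87, 0.000855), and JUNB was 80.1, 83.5 and 74.2 CPM in ACSS2-KO-2, against 91.9, 105 and 106 CPM in NC (log2 fold change -0.35, 0.000402). CTGF, a secreted matricellular protein, was 154, 165 and 149 CPM in ACSS2-KO-2, against 208, 194 and 201 CPM in NC (log2 fold change -0.37, 3.12e-05). Unlike FOS and EGR1, CTGF was not lower in ACSS2-KO-3, where it averaged 208 CPM (edgeR adjusted p against NC 0.424). All 5 calls held in all 13 alternatives, and ERCC1 overlaps FOSB and HOOK2 overlaps JUNB on the opposite strand.

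The 250 bases before the start of 4 of these genes, from RefSeq on GRCh38.p14 and all on the plus strand, are shown because FOS, FOSB and EGR1 hold the core of the cyclic AMP response element while JUNB, which fell as well, holds none. CTGF, the other gene of the list that fell, is CCN2 in RefSeq; its promoter holds none either and is not printed, so 3 of the 5 held a match. Capitals mark TGACGT or its reverse complement ACGTCA, searched on both strands; the full palindrome would give 2 overlapping matches. The search was chosen after the values were seen.
FOS chr14:75278578-75278827: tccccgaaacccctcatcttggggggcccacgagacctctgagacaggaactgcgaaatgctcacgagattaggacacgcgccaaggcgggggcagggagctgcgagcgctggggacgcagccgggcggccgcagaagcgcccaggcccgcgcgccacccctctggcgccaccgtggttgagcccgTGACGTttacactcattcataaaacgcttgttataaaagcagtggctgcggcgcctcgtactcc
FOSB chr19:45467746-45467995: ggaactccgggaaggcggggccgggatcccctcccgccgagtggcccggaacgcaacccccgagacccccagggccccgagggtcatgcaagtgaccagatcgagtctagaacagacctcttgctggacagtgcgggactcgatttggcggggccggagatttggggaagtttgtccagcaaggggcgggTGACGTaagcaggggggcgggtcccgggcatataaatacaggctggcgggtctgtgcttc
EGR1 chr5:138465229-138465478: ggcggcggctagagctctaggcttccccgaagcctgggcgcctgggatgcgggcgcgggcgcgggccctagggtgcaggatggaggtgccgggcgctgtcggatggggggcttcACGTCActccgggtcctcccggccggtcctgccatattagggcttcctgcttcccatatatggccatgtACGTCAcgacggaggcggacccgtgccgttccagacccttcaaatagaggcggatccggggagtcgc
JUNB chr19:12791236-12791485: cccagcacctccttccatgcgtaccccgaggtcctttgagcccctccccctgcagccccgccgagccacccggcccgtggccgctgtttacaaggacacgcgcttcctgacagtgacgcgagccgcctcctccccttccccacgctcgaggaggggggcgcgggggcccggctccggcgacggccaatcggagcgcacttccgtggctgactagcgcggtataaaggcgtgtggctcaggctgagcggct
Of the marked pattern, FOS and FOSB had 1 match each and EGR1 had 2. Across all 27305 promoters of the table, 7.42% held at least 1 match in these 250 bases, and of the 10217 that matched a tested protein-coding gene (79.1% of those genes), 10.1% did. Of the 26 tested immediate early genes, 18 had a promoter under the same symbol, too few for a comparison of shares (69.2%). FOSL2, JUND and MAFF held matches without passing the test, as 3 of the 14 that did not pass. DUSP1 and SIK1, described next, also held matches and PDE4B held none. A match describes these letters and shows no binding.

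Pathways around these genes changed in single members. Of 21 MAPK feedback genes, 3 rose and 2 fell. DUSP5, a nuclear phosphatase of ERK, was 27.0, 28.5 and 27.2 CPM in ACSS2-KO-2, against 18.4, 21.6 and 21.2 CPM in NC (log2 fold change 0.44, edgeR adjusted p 0.00143), whereas DUSP1, the stress-induced phosphatase of p38 and JNK, was 85.5, 86.3 and 82.5 CPM in ACSS2-KO-2, against 101, 101 and 107 CPM in NC (log2 fold change -0.28, 0.00106). The pair thus moved in opposite directions, each without overlap. HMGA1 (above) and the receptor EPHA2 rose, the second by 0.19 with a call lost on leaving out NC library 1 or 2, or ACSS2-KO-2 library 2 (adjusted p 0.0506 to 0.087), and PHLDA1 fell by 0.17, a call lost on leaving out any single library except ACSS2-KO-2 library 1 (adjusted p 0.0553 to 0.123). Of 28 cyclic AMP signalling genes, 3 rose and 2 fell. The adenylyl cyclases ADCY1, at 3.43, 3.95 and 5.36 CPM in ACSS2-KO-2, against 1.68, 1.88 and 1.49 CPM in NC (log2 fold change 1.33, 0.00023), and ADCY3, at 29.6, 35.0 and 33.2 CPM in ACSS2-KO-2, against 24.6, 24.5 and 25.3 CPM in NC (0.39, 0.00247), which make cyclic AMP, rose while PDE4B fell. SIK1, a kinase induced by cyclic AMP, fell by 0.37, a call lost on leaving out NC library 1 (adjusted p 0.063), and PRKAR2B, a regulatory subunit of protein kinase A with 7 counts in NC, rose by 2.86.

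Notch genes rose where they moved. Of 22 tested, 4 rose and 0 fell (2 were lower at an unadjusted p under 0.05), with a median of 0.18. Beside HEY1 (above), JAG1, a Notch ligand, was 99.3, 107 and 102 CPM in ACSS2-KO-2, against 77.0, 83.2 and 85.1 CPM in NC (log2 fold change 0.33, edgeR adjusted p 0.000377). NRARP, a feedback inhibitor of Notch, rose by 0.23, a call lost on leaving out NC library 1 or 2, or ACSS2-KO-2 library 1 or 3 (adjusted p 0.0637 to 0.166). HEY2, with 11 counts in NC, rose by 1.87 and lost its call in DESeq2 (adjusted p 0.0806) and on leaving out any single library except NC library 1 (adjusted p 0.0516 to 0.187). Under all 13 alternatives only JAG1 and HEY1 passed throughout.

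TGF-beta and BMP signalling held more falls than rises. Of 32 genes 3 rose and 5 fell, with a median of -0.09. BMP4, a secreted ligand, was 19.3, 23.6 and 19.2 CPM in ACSS2-KO-2, against 28.5, 29.4 and 29.0 CPM in NC (log2 fold change -0.49, edgeR adjusted p 0.0004), and TGFBI, a matrix protein induced by TGF-beta, was 547, 563 and 525 CPM in ACSS2-KO-2, against 658, 679.5 and 673 CPM in NC (log2 fold change -0.30, 0.000173). The ligand BMP7 (-0.57) and the corepressor TGIF1 (-0.28) also fell, and SMAD6, an inhibitor of BMP signalling, fell by 0.29 with a call lost on leaving out any single library except ACSS2-KO-2 library 3 (adjusted p 0.0513 to 0.0785). ID2, a dominant negative helix-loop-helix factor and known target of BMP, rose against that trend at 4.98, 3.88 and 3.19 CPM in ACSS2-KO-2, against 2.00, 1.49 and 1.13 CPM in NC (log2 fold change 1.39, 0.000127). Its relative ID4, nearly absent in NC, rose by 2.34, and TGFB1 rose by 0.22, a call lost on leaving out NC library 1 or 2, or ACSS2-KO-2 library 2 or 3 (adjusted p 0.1 to 0.162).

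Of 23 YAP-TEAD targets 4 rose and 2 fell. ANKRD1, a nuclear ankyrin repeat protein, was 5.43, 5.52 and 4.64 CPM in ACSS2-KO-2, against 3.12, 2.27 and 2.86 CPM in NC (log2 fold change 0.91, edgeR adjusted p 0.00157), while CTGF fell, so the classical targets of the list did not move together. The receptor kinase AXL rose by 0.20, the ectonucleotidase NT5E by 0.24 and FJX1 by 0.27, and IGFBP3 fell by 0.48. Their calls were lost for AXL on leaving out any single library except ACSS2-KO-2 library 1 (adjusted p 0.0507 to 0.127), for NT5E on leaving out NC library 2, or ACSS2-KO-2 library 3 (adjusted p 0.0773 and 0.0569), for FJX1 on leaving out NC library 1, or ACSS2-KO-2 library 2 (adjusted p 0.0603 and 0.0696) and for IGFBP3 on leaving out NC library 3, or ACSS2-KO-2 library 2 (adjusted p 0.0553 and 0.0813). Of 24 WNT genes 3 rose and 4 fell, of which only LEF1, in the 12 alternatives run on it, and WNT5B, in all 13, passed throughout. LEF1, a nuclear effector of WNT nearly absent in NC, was 3.03, 2.56 and 2.89 CPM in ACSS2-KO-2, against 0.998, 1.04 and 0.715 CPM in NC (log2 fold change 1.63, 0.000135), and the ligand WNT5B was 39.5, 41.4 and 38.7 CPM in ACSS2-KO-2, against 53.2, 48.0 and 49.5 CPM in NC (-0.34, 0.00133). The feedback inhibitor NKD1 rose by 1.89, a call lost on leaving out NC library 1 or 3, or ACSS2-KO-2 library 1 or 2 (adjusted p 0.0734 to 0.118), and the receptor FZD7 by 0.35, a call lost on leaving out NC library 2, or ACSS2-KO-2 library 2 (adjusted p 0.0602 and 0.051). TCF7 fell by 0.40 and the antagonists DKK1 and DKK3 by 0.21 and 0.23, calls lost for TCF7 on leaving out NC library 2 or 3, or ACSS2-KO-2 library 2 or 3 (adjusted p 0.0667 to 0.143), for DKK1 on leaving out NC library 1, or ACSS2-KO-2 library 2 or 3 (adjusted p 0.0825 to 0.121) and for DKK3 on leaving out NC library 3, or ACSS2-KO-2 library 1 or 3 (adjusted p 0.0604 to 0.0847).

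Where hypoxia and glycolysis genes moved, most fell. Of 26 hypoxia targets 6 fell and 3 rose, with a median of -0.14, and of 22 glycolysis genes 4 fell and 1 rose, with a median of -0.09. BNIP3, a receptor for mitophagy, was 71.5, 68.8 and 71.6 CPM in ACSS2-KO-2, against 101, 97.7 and 96.3 CPM in NC (log2 fold change -0.47, edgeR adjusted p 1.02e-06). PFKFB4, which sets the level of fructose 2,6-bisphosphate, was 21.5, 18.4 and 21.0 CPM in ACSS2-KO-2, against 31.4, 27.8 and 33.4 CPM in NC (-0.61, 2.09e-05), and the lipid droplet protein HILPDA was 38.8, 39.5 and 42.2 CPM in ACSS2-KO-2, against 54.3, 55.2 and 54.3 CPM in NC (-0.44, 5.99e-05). All 3 lay below every NC library. In glycolysis ALDOC, an aldolase, was 8.12, 8.75 and 8.55 CPM in ACSS2-KO-2, against 13.5, 11.7 and 13.5 CPM in NC (-0.61, 0.00156), and ENO2, an enolase, was 33.8, 31.8 and 31.7 CPM in ACSS2-KO-2, against 45.9, 39.8 and 42.0 CPM in NC (-0.39, 0.000581). GPI fell by 0.19, a call lost on leaving out NC library 2 or 3, or ACSS2-KO-2 library 2 or 3 (adjusted p 0.0663 to 0.123), and BNIP3L and the histone demethylase KDM3A by 0.21 each, calls lost for BNIP3L on leaving out any single library (adjusted p 0.0667 to 0.179) and for KDM3A on leaving out any single library except ACSS2-KO-2 library 3 (adjusted p 0.103 to 0.27). The lactate carrier SLC16A1 rose against them at 93.0, 94.3 and 94.3 CPM in ACSS2-KO-2, against 82.0, 68.7 and 75.2 CPM in NC (0.32, 0.00124).

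Of the hypoxia targets that rose, the mitochondrial kinase AK4 was present in NC and was 25.9, 26.0 and 27.0 CPM in ACSS2-KO-2, against 16.6, 18.3 and 16.4 CPM in NC (log2 fold change 0.62, edgeR adjusted p 3.01e-05). The prolyl hydroxylase EGLN3 had 59 counts in ACSS2-KO-2 and 3 in NC, a ratio of 19.3 (6.28 to 96.0), and the carbonic anhydrase CA12 had 17 counts in NC and rose by 2.33. Stress targets of ATF4 fell in 4 of 29 cases and rose in 0 (3 were higher at an unadjusted p under 0.05), with a median of -0.03. NUPR1, a small stress-induced chromatin protein, was 58.8, 56.4 and 52.2 CPM in ACSS2-KO-2, against 82.2, 85.2 and 78.4 CPM in NC (log2 fold change -0.55, 3.85e-07), and DDIT4, an inhibitor of mTORC1 in both lists, was 72.1, 70.4 and 68.8 CPM in ACSS2-KO-2, against 90.1, 94.4 and 106 CPM in NC (-0.46, 7.16e-06). CHAC1 (-0.33) lost its call on leaving out NC library 2, or ACSS2-KO-2 library 2 (adjusted p 0.0654 and 0.0813) and MTHFD2 (-0.16) on leaving out any single library (adjusted p 0.0828 to 0.168).

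Few chaperones passed. Over all tested genes 3.81% rose and 2.84% fell, so counts as small as those below give no direction for chaperones as a class. Of 24 heat shock genes 2 rose, HSPA8 and HSPA1B, and of 22 ER chaperones 2 rose, HSPA5 and PDIA6, with 0 lower in either list (0 at an unadjusted p under 0.05) and medians of 0.08 and 0.08. HSPA1B, an inducible Hsp70 whose reads may be split with its near-identical copy HSPA1A, was 71.3, 68.6 and 68.7 CPM in ACSS2-KO-2, against 46.0, 45.4 and 46.9 CPM in NC (log2 fold change 0.59, edgeR adjusted p 1.7e-07). PDIA6 rose by 0.21, a call lost on leaving out NC library 1 or 2, or ACSS2-KO-2 library 2 (adjusted p 0.0672 to 0.119). That of HSPA5 was lost as well (above). Of 21 NRF2 targets TXNRD1, a thioredoxin reductase, rose at 265, 289 and 289.8 CPM in ACSS2-KO-2, against 244, 229 and 242 CPM in NC (0.24, 0.00335), and the exporter ABCC1 fell by 0.20, a call lost on leaving out any single library except NC library 1 (adjusted p 0.0562 to 0.178).

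In immune signalling few calls passed throughout. Of 30 interferon response genes 3 rose and 4 fell. HLA-C, a class I antigen whose reads overlap with those of HLA-B, was 73.1, 76.3 and 68.2 CPM in ACSS2-KO-2, against 48.0, 55.9 and 60.1 CPM in NC (log2 fold change 0.41, edgeR adjusted p 0.000688) and was the only member to pass throughout. The other risers lost their calls, USP18 (0.65) on leaving out NC library 1 or 2, or ACSS2-KO-2 library 3 (adjusted p 0.053 to 0.167) and HLA-B (0.48) on leaving out any single library except NC library 1 (adjusted p 0.0531 to 0.18). So did the fallers IFIT1 (-0.30) on leaving out any single library except ACSS2-KO-2 library 1 (adjusted p 0.0897 to 0.216), IFI6 (-0.55) on leaving out NC library 1 or 3, or ACSS2-KO-2 library 1 (adjusted p 0.0566 to 0.143), OAS1 (-1.01) on leaving out any single library except ACSS2-KO-2 library 1 (adjusted p 0.0636 to 0.246) and STAT2 (-0.21) on leaving out any single library (adjusted p 0.0606 to 0.206). With all libraries kept, DESeq2 called 0 of the 4 interferon fallers. Of 20 NF-kB and cytokine genes 2 rose and 0 fell (4 were lower at an unadjusted p under 0.05). BIRC3, a ubiquitin ligase that blocks apoptosis and is induced by NF-kB, was 102, 108 and 109 CPM in ACSS2-KO-2, against 80.6, 82.4 and 75.6 CPM in NC (0.42, 0.000135), and CSF1, the macrophage growth factor, rose by 0.28 (0.00769; 0.054 without NC replicate 3). Of 21 TNF-family death genes 2 rose and 2 fell: BIRC3 and the receptor TNFRSF21 (0.25; 0.0684 without ACSS2-KO-2 replicate 2) were higher, TNFSF10 was lower, and so was the costimulatory ligand TNFSF9 at 23.6, 25.4 and 23.0 CPM in ACSS2-KO-2, against 33.2, 29.6 and 31.8 CPM in NC (-0.40, 0.000902).

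Genes of the extracellular matrix moved in both directions. Of 22 collagen genes 5 rose and 4 fell, of 25 matrix glycoprotein genes 9 rose and 3 fell, and of 25 matrix protease and inhibitor genes 5 rose and 2 fell. COL1A1, the main chain of fibrillar collagen I, was 97.1, 99.3 and 88.3 CPM in ACSS2-KO-2, against 163, 173 and 182 CPM in NC (log2 fold change -0.86, SE 0.06, edgeR adjusted p 1.39e-10), and MMP2, a gelatinase, was 60.5, 61.1 and 63.6 CPM in ACSS2-KO-2, against 114, 114 and 117 CPM in NC (-0.90, SE 0.06, 2.67e-11). COL16A1, a collagen associated with fibrils, was 44.9, 38.9 and 39.5 CPM in ACSS2-KO-2, against 50.2, 58.1 and 57.0 CPM in NC (-0.42, 0.00021). These 3 were lower in every knockout library. In the other direction COL5A2 rose (above), as did COL3A1, a partner of collagen I in fibrils, at 3.43, 4.14 and 3.19 CPM in ACSS2-KO-2, against 2.12, 1.17 and 1.55 CPM in NC (1.14, 0.0012), and COL4A2 of basement membranes by 0.45. COL21A1 fell by 0.87. COL4A5 rose by 0.46, a call lost on leaving out NC library 1, or ACSS2-KO-2 library 2 or 3 (adjusted p 0.0566 to 0.0995), and COL6A1 by 0.55, a call lost on leaving out NC library 1 or 3, or ACSS2-KO-2 library 1 (adjusted p 0.0533 to 0.0879). COL7A1 fell by 0.30, a call lost on leaving out NC library 2, or ACSS2-KO-2 library 2 or 3 (adjusted p 0.0583 to 0.108).

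Of the 9 glycoproteins that rose, 4 were present in NC. The laminin alpha chain LAMA3 was 6.01, 5.98 and 7.05 CPM in ACSS2-KO-2, against 3.37, 4.34 and 3.82 CPM in NC (log2 fold change 0.73, edgeR adjusted p 0.00324). The laminin alpha chain LAMA4 was 11.9, 13.5 and 11.2 CPM in ACSS2-KO-2, against 8.17, 8.03 and 8.58 CPM in NC (0.56, 0.00225). Fibronectin, FN1, was 3.15, 3.42 and 3.13 CPM in ACSS2-KO-2, against 1.06, 1.55 and 1.85 CPM in NC (1.11, 0.00316). The other 5 risers were nearly absent in NC: FBN2, the proteoglycan VCAN (99 counts in ACSS2-KO-2 and 1 in NC, ratio 96.9, 95% counting interval 17.0 to 3866), NID2, FBN1 and LAMA1, of which LAMA1 lost its call without ACSS2-KO-2 replicate 2 (0.0597). TGFBI and EFEMP1 fell (-0.30 and -0.29), and TNC fell by 0.96 with a call lost on leaving out any single library except ACSS2-KO-2 library 1 (adjusted p 0.0509 to 0.26). Among the proteases and inhibitors the inhibitor TIMP3 had 122 counts in ACSS2-KO-2 and 2 in NC (ratio 59.7, 16.2 to 499), and PLAT, the tissue plasminogen activator, rose by 2.51. The collagenase MMP1 rose by 2.27, a call lost on leaving out NC library 3, or ACSS2-KO-2 library 3 (adjusted p 0.0995 and 0.147), and SERPINE2 by 1.05, a call lost on leaving out NC library 1 or 3, or ACSS2-KO-2 library 3 (adjusted p 0.0751 to 0.264).

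**Figure D5:**
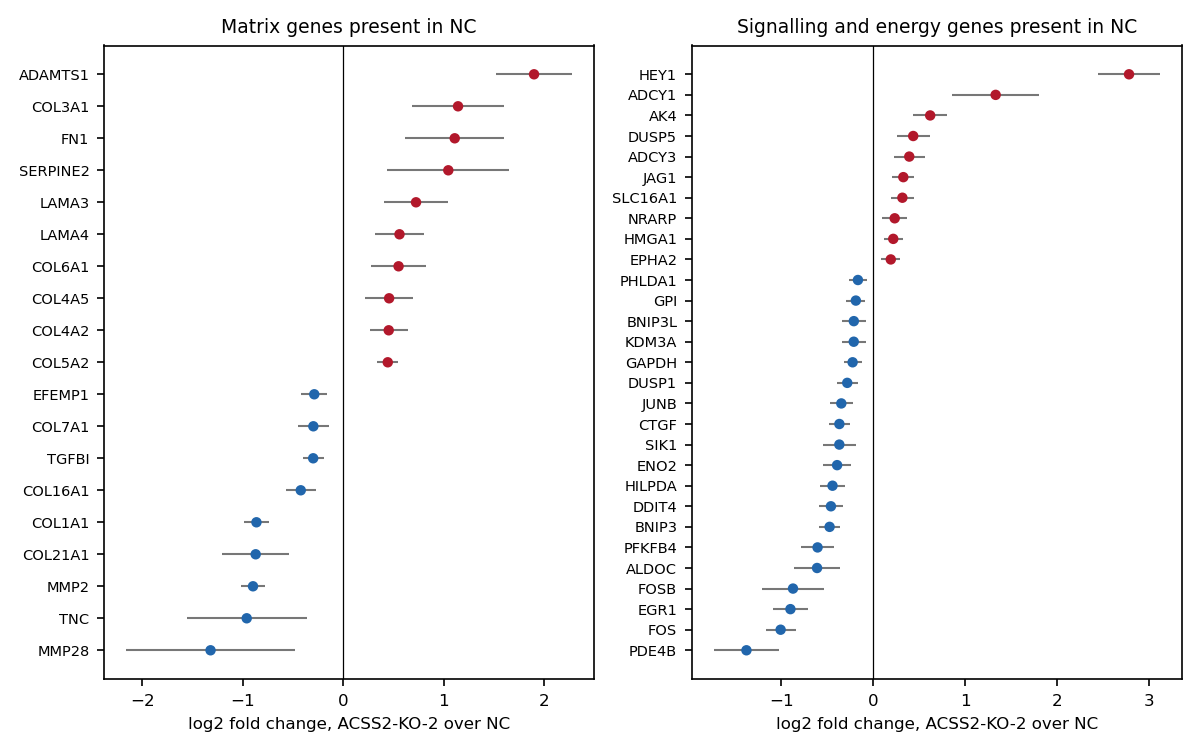
Log2 fold change of ACSS2-KO-2 over NC (points, red higher and blue lower) with 95% intervals (lines) for list members present in NC that passed the test and are reported here. Left, collagens, matrix glycoproteins and matrix proteases run from ADAMTS1 at 1.90 to MMP28 at -1.32; right, immediate early, MAPK feedback, cyclic AMP, hypoxia, glycolysis and Notch genes run from HEY1 at 2.79 to PDE4B at -1.38.

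Epithelial genes moved in both directions. Of 23 epithelial genes 5 rose and 2 fell, with a median of -0.08. CLDN1 of tight junctions was 49.0, 51.2 and 52.8 CPM in ACSS2-KO-2, against 38.0, 39.0 and 37.0 CPM in NC (log2 fold change 0.43, edgeR adjusted p 5.99e-05); the desmosome genes DSP and PKP2 were 60.0, 66.3 and 68.4 CPM in ACSS2-KO-2, against 43.3, 53.3 and 52.9 CPM in NC (0.38, 0.00211) and 33.1, 38.2 and 37.5 CPM in ACSS2-KO-2, against 27.0, 21.6 and 26.8 CPM in NC (0.53, 0.000222). All 3 passed throughout, whereas KRT19 (above) did not, nor did PKP3 (0.20), whose call was lost on leaving out any single library (adjusted p 0.0649 to 0.156). Of the fallers, CLDN7 (-0.26) was lost on leaving out NC library 2 or 3, or ACSS2-KO-2 library 2 or 3 (adjusted p 0.0574 to 0.134) and SPINT1 (-0.35) on leaving out NC library 3, or ACSS2-KO-2 library 3 (adjusted p 0.0533 and 0.0788). Of 22 mesenchymal genes AXL and NT5E rose and VIM, CDH2 and S100A4 fell, by 0.19 to 0.26, and every one of these calls was lost without ACSS2-KO-2 replicate 3 (0.0526 to 0.239); that of CDH2 was lost on leaving out any single library (adjusted p 0.0775 to 0.184).

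Axon guidance genes, which steer growing neurites and vessels, held several changes that passed in every alternative run on them. Of 32 tested, 8 rose and 3 fell, and 4 of the 8 were nearly absent in NC. SLIT2, a repellent ligand at 0 in NC, was 3.95, 3.68 and 3.43 CPM in ACSS2-KO-2, which is at least 19.8-fold higher, and UNC5B, a netrin receptor, was 2.57, 3.88 and 4.46 CPM in ACSS2-KO-2, against 0.749, 0.583 and 1.07 CPM in NC (log2 fold change 2.16, edgeR adjusted p 7.25e-06). Of those present in NC, the ligand NTN4 was 98.9, 116 and 119 CPM in ACSS2-KO-2, against 77.7, 83.1 and 89.1 CPM in NC (0.42, 0.000116), the netrin receptor NEO1 was 5.43, 4.14 and 5.12 CPM in ACSS2-KO-2, against 1.93, 2.78 and 2.44 CPM in NC (1.04, 0.000877) and the receptor PLXNA1 rose by 0.32. NRP2, a receptor for semaphorins and VEGF, was 7.04, 8.28 and 9.58 CPM in ACSS2-KO-2, against 16.8, 14.8 and 16.2 CPM in NC (-0.94, 3.48e-06), and the ligands SEMA3E and EFNA1 fell with it (-0.73 and -0.45). SEMA6A rose by 1.46, and PLXNA2 by 1.23 with a call lost on leaving out any single library except ACSS2-KO-2 library 1 (adjusted p 0.0863 to 0.203).

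HOX genes, which set position along the body axis, moved in both directions. Of 31 tested, 10 rose and 4 fell, and 9 of the 10 were nearly absent in NC, all of them from the HOXA and HOXD clusters. These 9 carry the limit on nearly absent genes given above. HOXA10 was 4.12, 4.08 and 3.13 CPM in ACSS2-KO-2, against 0 CPM in all 3 NC libraries, at least 20.2-fold higher, though its reads overlap HOXA9, and HOXD13 was 3.72, 2.96 and 2.77 CPM in ACSS2-KO-2, against 0 CPM in all 3 NC libraries, at least 16.9-fold higher. HOXD10 had 166 counts in ACSS2-KO-2 and 1 in NC (ratio 163, 95% counting interval 28.8 to 6457). The only riser present in NC was HOXA5, at 4.86, 5.39 and 4.34 CPM in ACSS2-KO-2, against 1.19, 1.62 and 2.68 CPM in NC (log2 fold change 1.40, edgeR adjusted p 0.000135), while HOXA6 lost its call on leaving out NC library 1 or 3, or ACSS2-KO-2 library 2 (adjusted p 0.0547 to 0.0623) and HOXA13 on leaving out any single library except ACSS2-KO-2 library 3 (adjusted p 0.0523 to 0.133). The 4 that fell were HOXB3 and HOXB5, by 0.36 and 0.30, and HOXC8 and HOXC13, by 0.31 and 0.21, the last pair with calls lost for HOXC8 on leaving out any single library (adjusted p 0.0716 to 0.142) and for HOXC13 on leaving out NC library 2 or 3, or ACSS2-KO-2 library 2 or 3 (adjusted p 0.064 to 0.125). HOXB3 overlaps several genes of its cluster. Of the risers HOXA9, HOXA10, HOXD10 and HOXD13 are also among the HEK293 markers above, whose part was not tested.

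Other developmental factors moved in both directions too. Of 43 tested outside the HOX clusters, 8 rose and 3 fell, and 6 of the 8 were nearly absent in NC, with the same limit. SIX2, a factor of kidney progenitors, was 2.23, 1.51 and 1.93 CPM in ACSS2-KO-2, against 0 CPM in all 3 NC libraries, at least 10.1-fold higher. EYA4, a factor of the inner ear, was 1.37, 1.25 and 2.17 CPM in ACSS2-KO-2, against 0 CPM in all 3 NC libraries, at least 8.55-fold higher. SALL1 also was at 0 in NC, and PAX6 rose by 2.19 with a call lost without NC replicate 2 (0.0612). GATA6, a factor of endoderm and pancreas that marks the classical state of pancreatic carcinoma, was present in NC and was 6.75, 7.82 and 8.49 CPM in ACSS2-KO-2, against 4.80, 4.27 and 4.17 CPM in NC (log2 fold change 0.80, edgeR adjusted p 0.000842). LHX1 rose by 0.31, a call lost on leaving out any single library except ACSS2-KO-2 library 2 (adjusted p 0.0582 to 0.16). PAX2, TFAP2A and SALL4 fell by 0.27, 0.22 and 0.75, calls lost for PAX2 on leaving out NC library 2 or 3, or ACSS2-KO-2 library 2 (adjusted p 0.0503 to 0.0679), for TFAP2A on leaving out any single library (adjusted p 0.0551 to 0.22) and for SALL4 on leaving out any single library except NC library 3 (adjusted p 0.0502 to 0.208).

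Insulin receptor signalling changed beyond IRS4. Of 26 genes 5 rose and 2 fell. IGFBP5, a carrier of insulin-like growth factors, was 2.40, 1.64 and 3.01 CPM in ACSS2-KO-2, against 0 CPM in all 3 NC libraries, at least 12.6-fold higher, and was like IRS4 at 0 in NC. IGF2 rose by 1.05, a call lost on leaving out NC library 1 or 2, or ACSS2-KO-2 library 2 or 3 (adjusted p 0.101 to 0.278), and FOXO1 by 0.59, a call lost on leaving out any single library (adjusted p 0.0501 to 0.189). IGFBP2 fell by 0.24, a call lost on leaving out NC library 2 or 3, or ACSS2-KO-2 library 3 (adjusted p 0.0524 to 0.106), and IGFBP3 was given above. The IGF2 libraries of the groups overlapped.

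Few genes of germ cells and cilia had enough counts. Of 7 tested germline genes 3 rose and 0 fell (1 was lower at an unadjusted p under 0.05). TEX15 had 52 counts in ACSS2-KO-2 and 1 in NC (ratio 50.9, 95% counting interval 8.74 to 2049). LIN28B, an RNA-binding protein of stem cells, and MAGEA3, an antigen gene with near-identical copies, rose by 0.54 and 0.68, calls lost for LIN28B on leaving out NC library 2 or 3, or ACSS2-KO-2 library 3 (adjusted p 0.0974 to 0.169) and for MAGEA3 on leaving out NC library 2, or ACSS2-KO-2 library 2 (adjusted p 0.0583 and 0.0528). Of 15 motile cilium genes 3 fell and 0 rose (0 at an unadjusted p under 0.05), with a median of -0.24: CCDC180 (above), CCDC114, at 4.81, 4.14 and 4.40 CPM in ACSS2-KO-2, against 8.42, 9.26 and 5.25 CPM in NC (log2 fold change -0.77, edgeR adjusted p 0.00646; 0.0792 without NC replicate 2), and PIFO (-1.20, 0.0312; 0.0781 to 0.198 on leaving out NC library 1 or 3, or ACSS2-KO-2 library 2 or 3). Of 10 clustered protocadherin genes 0 passed in either direction, with 0 higher and 1 lower at an unadjusted p under 0.05.

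A few transcripts of the mitochondrial genome fell slightly. Of 13, 3 fell (MT-CO3, MT-CYB and MT-ND6) and 0 rose (0 at an unadjusted p under 0.05), with a median of -0.10, and 0 of the 3 calls held without NC replicate 2 (0.0524 to 0.115). The share of all counts on the mitochondrial chromosome ran from 5.69 to 6.08% in ACSS2-KO-2 and from 6.29 to 6.46% in NC. Of 75 cytosolic ribosomal protein genes 2 rose, RPL5 and RPL9, by 0.18 and 0.22, and 0 fell (2 were lower at an unadjusted p under 0.05); the calls were lost for RPL5 on leaving out NC library 2 or 3, or ACSS2-KO-2 library 1 or 2 (adjusted p 0.0506 to 0.0819) and for RPL9 on leaving out NC library 2, or ACSS2-KO-2 library 1 (adjusted p 0.0616 and 0.0595). The ribosomal list median was 0.01.

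No nuclear chromosome moved as a block. The median log2 fold change of present genes on these ran from -0.03 on chromosome 15 to 0.04 on chromosome 20. In 272 windows of 50 neighbouring present genes the medians ran from -0.17 to 0.08, and 271 of them lay within 0.1 of zero. The lowest window lay on chromosome 19 from ALKBH6 to SPINT2 (36009120 to 38292614), a stretch of clustered zinc finger genes, where 40 genes were lower and 10 higher, and 3 passed as lower. Its median was -0.56 in ACSS2-KO-3.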

How the data were processed

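RNA of 9 PANC-1 libraries was sequenced, 3 each of ACSS2-KO-2, ACSS2-KO-3 and NC, grouped by their titles. The deposited table holds raw read counts per gene; cutadapt 1.9, HISAT2 2.2.1, StringTie 2.1.6 and build GRCh38 are named per the submitters' processing notes, without roles or settings. Second strands were removed with dUTP, per the labels' protocols, but whether counting used strand was not stated in these sources. The members and gene lists were chosen with earlier results of these data known. Genes were kept by edgeR 4.0.16 filterByExpr (10 counts, 15 in total) and scaled by TMM. The 9 libraries were fitted with 1 mean per group (6 residual degrees of freedom), and ACSS2-KO-2 was tested against NC by the quasi-likelihood test with Benjamini-Hochberg adjustment over all 15811 genes at 0.05. Counts of 0 in NC were replaced by a floor of 3 counts per library to give lower bounds. Libraries with the same number did not deviate together (0 of 9 correlations over 0.1). Named genes were ACSS2, BCAT1 and BCAT2; non-overlapping protein-coding genes with the largest folds (10 each way), CPM differences (5 each way) or levels among nearly absent genes (10 risen, 3 fallen); and up to 3 called members per list. Most other called list members, MTAP and AMOT were named after their values were seen; a few genes are not reported here. Alternatives were RLE scaling, no filter, 6 libraries, a replicate block, present genes only, limma-voom 3.58.1, DESeq2 1.42.0, other limits for presence, and each library left out. The steps were tested on simulated data.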

Additional observations from a re-analysis of the deposited data

How the results depend on the processing

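The main count of 1052 genes was 1071 under RLE scaling (697 higher and 374 lower), 1306 without the filter, 1371 with 6 libraries, 1075 with limma-voom and 911 with DESeq2, and 666 to 979 with a library left out. Among genes present in NC, 819 passed, against 837 under RLE scaling, 906 without the filter, 1133 with 6 libraries, 729 with these genes fitted alone, 839 with limma-voom and 711 with DESeq2, and 436 to 749 with a library left out. Among nearly absent genes, 233 passed, against 400 without the filter, 200 with DESeq2, and 220 to 252 with a library left out. With the limit for presence at 0.5 or 2 CPM, 866 or 767 present genes and 186 or 285 nearly absent genes passed. The replicate block, which the data did not show to pair the libraries, gave 1113 genes in all, 881 present and 232 nearly absent. Of 223 named genes that passed, 130 did so in every alternative run on them (85 in all 13, and 45 nearly absent genes in the 12 that took them in), 93 were lost without at least 1 library and 33 in another setting, and 0 changed direction. The cause of these changes was not tested. Depth limits the folds of genes at 0 in NC to lower bounds.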
